A study of Mus musculus with 38 samples.

Results

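The 10 genes described here encode the hypoxia-inducible factor (HIF) and the enzymes that sense oxygen for it. They were taken by name: the alpha subunits Hif1a, Epas1 and Hif3a, the partner subunits Arnt and Arnt2, the prolyl hydroxylases Egln1, Egln2 and Egln3, the ubiquitin ligase subunit Vhl, and the asparaginyl hydroxylase Hif1an. All 10 were found among the 55487 genes of the poly(A) RNA-seq count tables. The rule that names them uses no measured value, although they were chosen with earlier results of these data known. The 38 libraries came from 3 mouse cell types. BV2 is a microglial line made by immortalisation, GL261 is a line of glioma cells with stable pEGFP-N1, a plasmid for green fluorescent protein, and BMDM are primary macrophages grown from bone marrow of wild-type animals whose strain, sex and age are not given. In the first experiment each type was kept alone or in direct co-culture (BV2 with GL261 at 1:2, BMDM with GL261 at 1:1), at 21% oxygen (normoxia) or below 0.1% (hypoxia) for 16 h. In the second, BV2 and BMDM received the vehicle DMSO in normoxia, DMSO in hypoxia, or 10 nM panobinostat, a histone deacetylase inhibitor, in hypoxia. First and second experiment are names used here. The first joins the count table of BV2 and GL261 with a separate one of BMDM. Sample titles and column names do not say whether these were run together. Each of the 18 groups had 2 libraries, apart from co-cultured BMDM, which had 3 at either oxygen level. How co-cultured cells were separated before fixation in 3% glyoxal is not stated, and BV2 and GL261 are each 1 line.

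In the textbook view of the pathway, EGLN enzymes use oxygen to hydroxylate prolines of the HIF alpha subunits, and VHL binds the hydroxylated protein and directs it to the proteasome. HIF1AN, also called FIH, hydroxylates an asparagine and so blocks the binding of the coactivators p300 and CBP. Without oxygen the alpha subunit accumulates, pairs with ARNT and binds DNA at the core sequence RCGTG, and Egln1 and Egln3 are themselves known HIF targets. The RNA measured here does not report the protein stability or enzyme activity on which that control acts.

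On the mouse build GRCm38 (mm10) with the GENCODE M21 annotation, all 10 are protein-coding genes, counted over their exons. The alpha subunit genes are Hif1a (ENSMUSG00000021109) at chr12:73901375-73947530 (plus strand), Epas1 (ENSMUSG00000024140) at chr17:86753700-86833410 (plus strand) and Hif3a (ENSMUSG00000004328) at chr7:17031507-17062427 (minus strand). The partner genes are Arnt (ENSMUSG00000015522) at chr3:95434388-95497240 (plus strand) and Arnt2 (ENSMUSG00000015709) at chr7:84246278-84410176 (minus strand). The prolyl hydroxylase genes are Egln1 (ENSMUSG00000031987) at chr8:124908587-124949324 (minus strand), Egln2 (ENSMUSG00000058709) at chr7:27158658-27166802 (minus strand) and Egln3 (ENSMUSG00000035105) at chr12:54178981-54203860 (minus strand). The other 2 are Vhl (ENSMUSG00000033933) at chr6:113623959-113631633 (plus strand) and Hif1an (ENSMUSG00000036450) at chr19:44562850-44576274 (plus strand).

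Library totals ran from 9634700 to 27238933 counts, so that 3 counts, taken here as the detection floor, corresponded to 0.110 to 0.311 CPM (counts scaled to a common library size). All 11 microglia and macrophage markers were above 3 counts in BV2 and BMDM alone, while their summed level in GL261 alone was 1.89 to 4.14 CPM. Of the homeostatic microglial markers, Sall1 and Siglech were at or near 0 in BV2. RNA of the partner cell, estimated from genes at least 100-fold apart between the types, made up 0.761 ± 0.272% (SD, n = 2) of normoxic and 2.21 ± 0.213% of hypoxic co-cultured BV2 libraries, and 0.772 ± 0.202% and 0.230 ± 0.0328% of the GL261 ones. In co-cultured BMDM it was 2.39 ± 1.22% in normoxia and 3.76 ± 2.39% in hypoxia (n = 3 each). The BMDM libraries of the second experiment stood apart. Their summed fibroblast markers (Col1a1, Col1a2, Col3a1, Dcn and Lum) were 22967 and 20162 CPM in normoxia, 2617 and 13702 in hypoxia and 8711 and 14264 with panobinostat, against 70.1 to 587 CPM in BMDM of the first. Col1a1, Col1a2 and Col3a1 made up most of these sums, and Lum was near 0. In BV2 of the second experiment the fibroblast marker sums were 14.7 to 21.7 CPM, far lower but above the 0 to 0.323 CPM of BV2 alone in the first. In bulk RNA, fewer cells of a type and less RNA per cell cannot be told apart.

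In normoxic cells kept alone, the order of the members by level differed between the 3 cell types. Levels of different genes are compared as CPM per kb of exon (mean ± SD, n = 2), and the values of each cell type were scaled in its own fit. In BV2, Hif1a led with 31.1 ± 4.93, followed by Egln1 at 24.2 ± 0.958, Hif1an at 15.3 ± 0.0616 and Egln2 at 14.2 ± 0.451. Vhl (6.22 ± 0.474) and Arnt (5.62 ± 0.560) came next and overlapped between libraries, and Egln3 (3.34 ± 0.247) and Epas1 (2.79 ± 0.329) were lower. Hif3a and Arnt2, at 0.107 ± 0.0173 and 0.0917 ± 0.0671, were lowest and overlapped. In GL261, Egln1 was highest at 24.1 ± 0.698 and Egln2 second at 19.7 ± 1.497, with Hif1an at 15.1 ± 0.879. GL261 Hif1a, at 9.58 ± 3.13, overlapped Vhl at 7.97 ± 0.0400. In BMDM, Egln2 stood at the top with 34.3 ± 4.67, followed by Egln1 at 16.6 ± 0.556, Hif1a at 6.36 ± 0.700 and Vhl at 5.85 ± 0.194, of which Hif1a and Vhl overlapped. BMDM Arnt (5.30 ± 0.442) and Hif1an (5.11 ± 0.228) also overlapped. Hif3a had no count in either of these BMDM libraries. Normoxic DMSO BMDM of the second experiment had another order. Their alpha subunit genes summed to 90.9 and 29.5 CPM per kb, 91.8 and 83.6% of it Hif1a, against 8.58 and 9.21 in BMDM alone. Their prolyl hydroxylase genes summed to 120.5 and 52.3, with Egln1 at 40.7 and 42.9% and Egln2 at 30.5 and 52.6%.

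**Figure D1:**
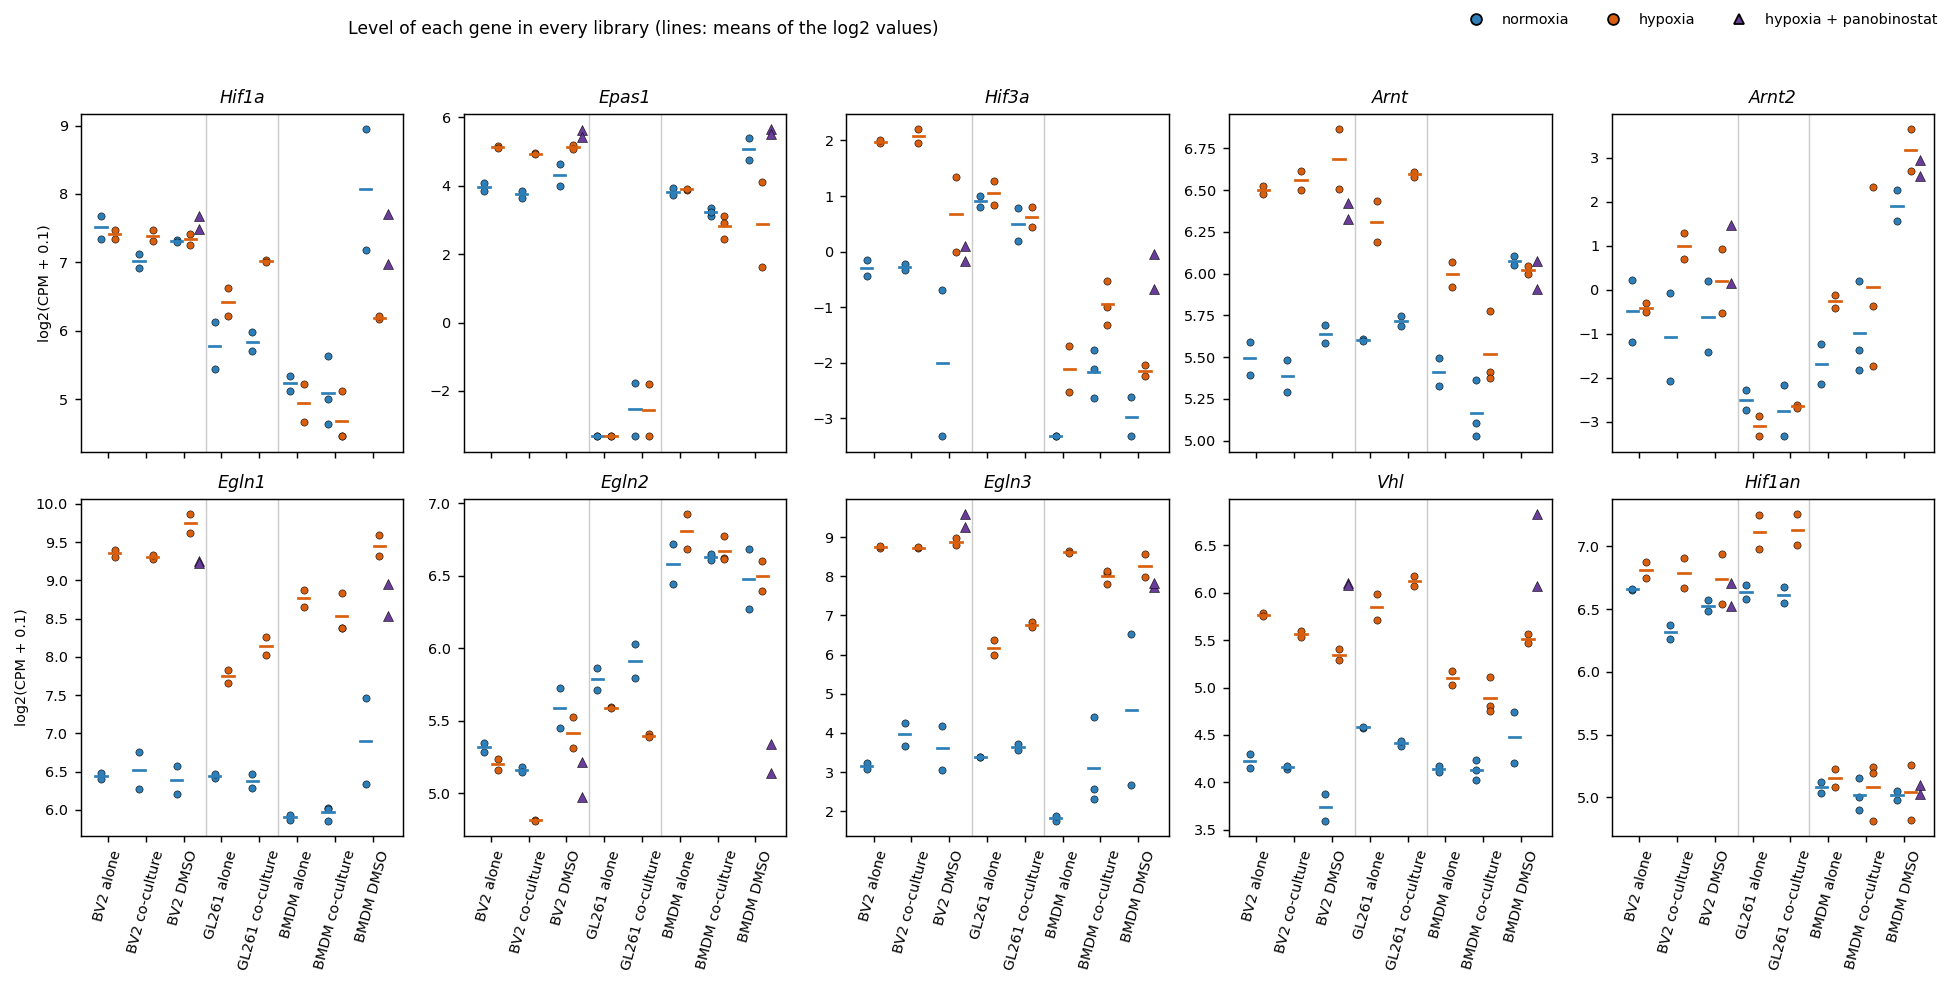
Level of each of the 10 genes in every library, as log2(CPM + 0.1), by cell type and culture; circles are libraries in normoxia (blue) or hypoxia (orange), triangles are panobinostat libraries, and short lines are the means of the log2 values. Egln1, Egln3 and Vhl were higher in every hypoxic library than in every normoxic library of the same cell type and culture, while Epas1 was at 0 in every GL261 library kept alone.

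Epas1, which encodes HIF-2 alpha, separated the myeloid cells from the glioma cells. It had 14.3 and 16.9 CPM in normoxic BV2 and 15.2 and 13.2 in normoxic BMDM, and no count in any of the 4 GL261 libraries kept alone. Against a floor of 3 counts per library, BV2 was at least 92.5-fold higher than GL261 in normoxia and at least 205-fold higher in hypoxia. The 3 Epas1 counts found in 1 normoxic and in 1 hypoxic GL261 co-culture library lie at that floor. Hif1a therefore made up nearly all alpha subunit RNA of GL261, 96.3 and 98.0% of the summed CPM per kb of Hif1a, Epas1 and Hif3a in the normoxic libraries. In BV2 the Hif1a share was 91.2 and 91.7% in normoxia and 79.9 and 81.7% in hypoxia, with Epas1 going from 8.45 and 8.01% to 18.4 and 16.7%. In BMDM alone Epas1 made up 31.6 and 25.6% in normoxia and 37.8 and 29.6% in hypoxia. These were the highest Epas1 shares among cells kept alone in the first experiment. Such shares were not seen in DMSO BMDM of the second, with 8.195 and 16.4% in normoxia and 4.19 and 19.6% in hypoxia. DMSO BV2 had 13.97 and 9.602% in normoxia and 18.1 and 18.7% in hypoxia.

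The same normoxic libraries were compared by a fit over BV2 and GL261 together, while the CPM given are those scaled within each line's own fit. Of the 10 members, 5 differed, where 73.2% of all genes tested did so. Hif1a was higher in BV2 (163 and 204 CPM) than in GL261 (43.4 and 69.5 CPM), without overlap, by 3.52-fold (edgeR quasi-likelihood test, log2 fold change 1.82, SE 0.19, adjusted p 9.65e-08, Benjamini-Hochberg adjustment over all genes tested, as for every adjusted p here). Hif3a, an alpha subunit with splice forms that inhibit the others, was lower in BV2 (log2 fold change -1.18, SE 0.34, adjusted p 0.00492). Epas1, Arnt2 and Egln2 also differed, Arnt2 being higher (log2 fold change 3.16, SE 0.92, adjusted p 0.00461) and Egln2 lower in BV2 (log2 fold change -0.36, SE 0.11, adjusted p 0.00896). The Arnt2 call was lost without BV2 replicate 2 (2.13, adjusted p 0.103). The Egln2 call was lost without BV2 replicate 2 (-0.34, adjusted p 0.0617) or GL261 replicate 1 (-0.31, adjusted p 0.0620), and with no filter on low counts (-0.30, adjusted p 0.119). For Egln1 the difference was 0.12 (SE 0.14) and for Arnt 0.01 (SE 0.12), neither past the threshold of 0.05.

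Hypoxia raised Egln1 and Egln3 in BV2, GL261 and BMDM of the first experiment, and in cells kept alone these were the largest rises among the members. In BV2 alone, Egln3 had 9.35 and 8.42 CPM in normoxia and 421 and 435 in hypoxia, a rise of 48.1-fold (log2 fold change 5.59, SE 0.17, adjusted p 1.98e-12). In GL261 alone it went from 10.3 and 10.4 to 82.8 and 63.2 CPM, 7.06-fold (log2 fold change 2.82, SE 0.16, adjusted p 7.40e-07). In BMDM alone it went from 3.28 and 3.59 to 404 and 386 CPM, 115-fold (log2 fold change 6.84, SE 0.64, adjusted p 7.03e-05). The hypoxic libraries lay above every normoxic library in each type, and GL261 reached the lowest hypoxic level. Egln1, whose product is regarded as the main oxygen sensor of the pathway, rose from 84.5 and 89.3 to 676 and 634 CPM in BV2 (7.54-fold, log2 fold change 2.91, SE 0.15, adjusted p 2.10e-10). In GL261 it rose from 85.0 and 88.5 to 227 and 202 CPM (2.47-fold, log2 fold change 1.31, SE 0.14, adjusted p 3.72e-05). In BMDM it rose from 61.1 and 58.3 to 469.8 and 403 CPM (7.31-fold, log2 fold change 2.87, SE 0.20, adjusted p 1.20e-05). Normoxic and hypoxic libraries overlapped in no type, and the normoxic values of BV2 and GL261 overlapped each other while the hypoxic values did not.

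Egln2, the third prolyl hydroxylase gene, did not share this rise. It had 40.6 and 38.8 CPM in normoxic and 37.5 and 35.7 in hypoxic BV2, a log2 fold change of -0.12 (SE 0.11, adjusted p 0.379). In GL261 alone the values were 58.2 and 52.2 CPM in normoxia and 48.1 and 48.0 in hypoxia (log2 fold change -0.20, SE 0.13, adjusted p 0.225). In BMDM alone they were 105 and 86.7 CPM in normoxia and 121 and 103 in hypoxia (log2 fold change 0.22, SE 0.15, adjusted p 0.323). The BV2 and GL261 values were lower in every hypoxic library and those of BMDM overlapped, and none of the 3 passed the test. In co-culture Egln2 fell in BV2, from 36.2 and 35.2 to 28.0 and 27.9 CPM (log2 fold change -0.35, SE 0.11, adjusted p 0.0133), and in GL261, from 65.3 and 55.5 to 42.3 and 41.6 CPM (log2 fold change -0.52, SE 0.13, adjusted p 0.00538). These groups did not overlap. The BV2 call was lost without normoxic replicate 1 (-0.34, adjusted p 0.0687) or 2 (-0.36, adjusted p 0.0572), and the GL261 call without normoxic replicate 1 (-0.39, adjusted p 0.0936).

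The DNA just upstream of these genes is shown because Egln1, Egln3 and Vhl moved together in hypoxia and Egln2 did not. RefSeq promoter entries (GRCm38.p6) were available for 9 of the 10 members. The 250 bases before each start were searched on both strands for ACGTG and GCGTG, the 2 forms of the HIF core sequence, which can share a base with each other (CACGTG matches ACGTG on both strands). Of the 9 genes, 6 held at least 1 match, where 16.6% of 32851 promoters of the same length held ACGTG, 28.2% GCGTG and 38.6% either. Hif1a is among the 6, but its RefSeq start lies 6492 bases inside the GENCODE gene, so that its window is not upstream of the annotated gene. In the sequences, given 5′ to 3′ in the direction of transcription, capitals mark a match on either strand (its reverse complement where it lies on the other).
Egln3 (chr12:54203875-54204124, minus strand): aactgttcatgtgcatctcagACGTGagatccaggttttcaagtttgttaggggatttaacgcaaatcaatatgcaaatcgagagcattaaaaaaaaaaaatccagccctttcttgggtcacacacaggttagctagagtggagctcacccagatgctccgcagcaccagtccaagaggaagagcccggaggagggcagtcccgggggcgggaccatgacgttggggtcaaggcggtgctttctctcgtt
Egln1 (chr8:124949325-124949504, minus strand): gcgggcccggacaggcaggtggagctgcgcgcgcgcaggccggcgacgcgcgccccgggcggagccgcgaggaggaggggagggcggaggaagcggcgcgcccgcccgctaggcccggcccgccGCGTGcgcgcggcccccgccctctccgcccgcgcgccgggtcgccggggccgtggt
Egln2 (chr7:27166803-27167052, minus strand): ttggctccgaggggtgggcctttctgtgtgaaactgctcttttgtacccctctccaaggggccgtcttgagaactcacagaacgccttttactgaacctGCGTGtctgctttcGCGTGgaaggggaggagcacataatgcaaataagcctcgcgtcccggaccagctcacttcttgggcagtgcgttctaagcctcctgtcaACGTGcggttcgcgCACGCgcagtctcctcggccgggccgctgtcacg
Vhl (chr6:113623744-113623958, plus strand): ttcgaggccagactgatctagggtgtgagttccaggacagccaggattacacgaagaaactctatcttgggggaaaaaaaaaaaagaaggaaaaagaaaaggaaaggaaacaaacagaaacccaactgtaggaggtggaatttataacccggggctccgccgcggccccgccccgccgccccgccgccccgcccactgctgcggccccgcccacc
Egln3 held 1 ACGTG, 229 bases before its start. The printed Egln1 stretch, 180 bases, held 1 GCGTG 126 bases before the start, and a further ACGTG at 68 bases lies beyond it, inside the annotated gene. Egln2 held ACGTG at 48 bases and GCGTG at 137 bases and again further upstream, with another GCGTG on the opposite strand at 34, and Vhl held neither in this window. A match to 5 letters is a description of the sequence, and the window says nothing of sites elsewhere in these genes.

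With Egln1 and Egln3 rising beside Egln2, the makeup of the prolyl hydroxylase RNA differed between oxygen levels. In normoxic BV2 alone, Egln1 made up 56.6 and 59.4% of the summed CPM per kb of the 3 genes, Egln2 34.9 and 33.1% and Egln3 8.46 and 7.55%. In hypoxic BV2 the Egln3 share was 44.0 and 46.4% and the Egln2 share 3.72 and 3.62%, and the sum itself went from 41.5 and 41.9 to 359.8 and 353 CPM per kb. BMDM started from a different makeup, with Egln2 at 67.3 and 63.8% and Egln3 at 2.21 and 2.78% in normoxia. In hypoxic BMDM, Egln2 was 13.3 and 12.5% and Egln3 46.6 and 49.3%, with sums of 55.8 and 48.5 before and 326 and 294 after. In GL261 the sum went from 48.3 and 47.2 to 112 and 97.0, and Egln3 from 8.04 and 8.24% to 27.9 and 24.5%. Among hypoxic cells kept alone, Egln1 was the largest share in GL261, at 56.7 and 57.8%, and in both BV2 libraries, and Egln3 the largest in BMDM. Other hypoxic BMDM libraries differed from this. With DMSO, Egln1 was the larger, at 62.4 and 50.8% against 27.5 and 40.6% for Egln3. In co-culture, Egln1 exceeded Egln3 in replicates 1 and 2, and Egln3 exceeded Egln1 in replicate 3 (45.5 against 39.5%).

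**Figure D2:**
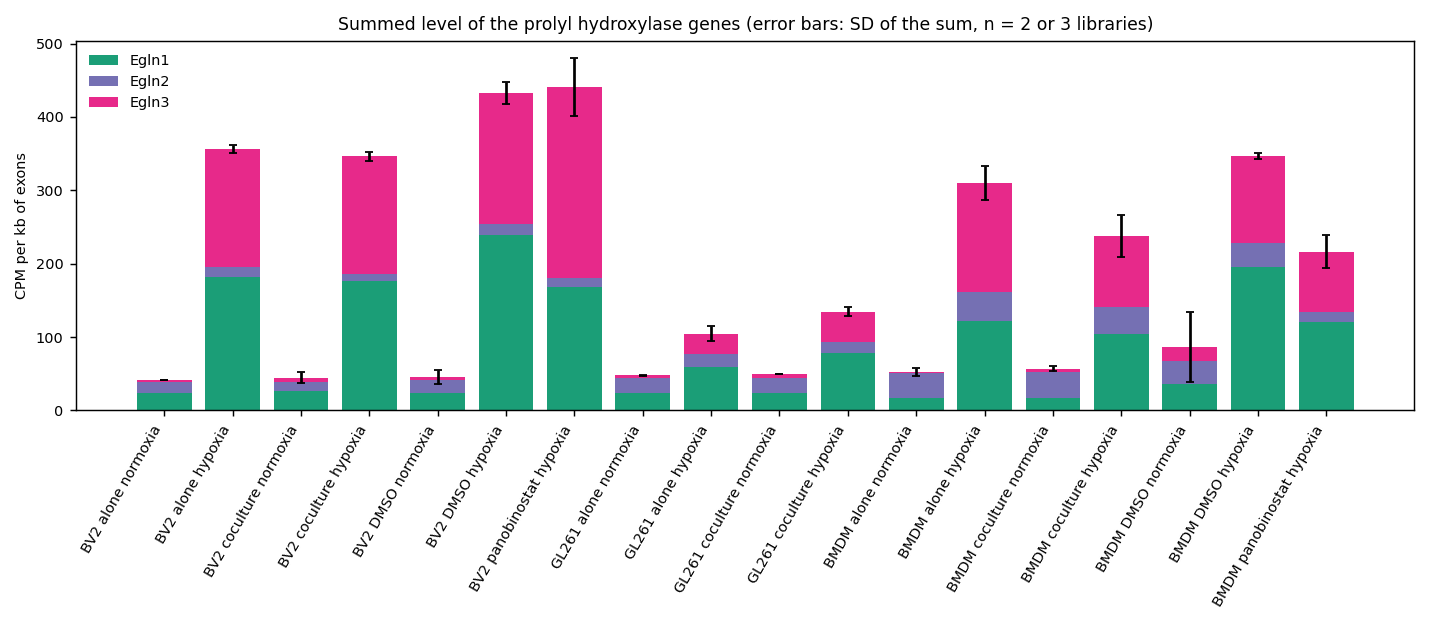
Summed level of Egln1 (green), Egln2 (purple) and Egln3 (pink) in each group, in CPM per kb of exon; bars are stacked group means and error bars the SD of the sum over 2 or 3 libraries. The Egln3 block was small in every normoxic group except normoxic DMSO BMDM, where 1 of the 2 libraries was high, and the hypoxic GL261 sums stayed below those of hypoxic BV2 and BMDM.

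Vhl, which encodes the substrate-binding subunit of the ligase that degrades HIF alpha, also rose in hypoxia. It went from 17.6 and 19.6 to 55.0 and 53.9 CPM in BV2 alone (2.92-fold, log2 fold change 1.55, SE 0.12, adjusted p 1.54e-08). In GL261 alone it went from 23.8 and 24.0 to 63.4 and 52.3 CPM (2.43-fold, log2 fold change 1.28, SE 0.14, adjusted p 3.86e-05). In BMDM alone it went from 17.95 and 17.1 to 36.0 and 32.5 CPM (1.95-fold, log2 fold change 0.96, SE 0.17, adjusted p 0.00308). Normoxic and hypoxic libraries were separate in each type, and the BMDM call was lost without normoxic replicate 2 (0.85, adjusted p 0.0524). In co-culture Vhl rose by 1.41 (SE 0.12, adjusted p 4.40e-08) on the log2 scale in BV2, by 1.72 (SE 0.14, adjusted p 3.81e-06) in GL261 and by 0.77 (SE 0.14, adjusted p 0.00193) in BMDM. Hif1an moved less. It had 95.4 and 104 CPM in normoxic and 152 and 126 in hypoxic GL261 alone, a rise of 1.40-fold (log2 fold change 0.48, SE 0.14, adjusted p 0.0165) that was lost without normoxic replicate 1 (0.43, adjusted p 0.0982) or hypoxic replicate 1 (0.37, adjusted p 0.0869). It rose too in co-cultured GL261 (log2 fold change 0.53, SE 0.14, adjusted p 0.00879) and BV2 (log2 fold change 0.48, SE 0.12, adjusted p 0.00176). The GL261 call did not hold without normoxic replicate 1 (0.47, adjusted p 0.0870) or hypoxic replicate 1 (0.41, adjusted p 0.0885), and the BV2 call without hypoxic replicate 1 (0.27, adjusted p 0.0773). In BV2 and BMDM alone its log2 fold changes were 0.15 (SE 0.11, adjusted p 0.255) and 0.08 (SE 0.17, adjusted p 0.793).

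Of the alpha subunits, Hif1a was called for hypoxia in some cell types and cultures only. Such a pattern of calls does not by itself show that its effects differ between types. Hif1a had 163 and 204 CPM in normoxic and 163 and 178 in hypoxic BV2 alone, groups that overlapped (log2 fold change -0.11, SE 0.13, adjusted p 0.492). In GL261 alone it had 43.4 and 69.5 CPM in normoxia and 98.9 and 74.0 in hypoxia, both hypoxic libraries being the higher, a rise of 1.53-fold (log2 fold change 0.62, SE 0.21, adjusted p 0.0312). The GL261 call was lost without normoxic replicate 1 (0.32, adjusted p 0.251) or hypoxic replicate 1 (0.42, adjusted p 0.194). In co-cultured GL261 the rise was from 52.0 and 62.9 to 131 and 129 CPM (2.26-fold, log2 fold change 1.17, SE 0.21, adjusted p 7.09e-04). In co-cultured BV2 Hif1a rose from 139 and 120.2 to 177 and 159 CPM (1.30-fold, log2 fold change 0.37, SE 0.13, adjusted p 0.0170). That call was lost without normoxic replicate 2 (0.28, adjusted p 0.155), without hypoxic replicate 1 (0.22, adjusted p 0.235) or with no filter on low counts (0.28, adjusted p 0.0578). In BMDM alone the values were 34.6 and 40.4 CPM in normoxia and 25.4 and 37.1 in hypoxia, which overlapped (log2 fold change -0.26, SE 0.32, adjusted p 0.601). In co-cultured BMDM they were 31.9, 49.5 and 24.8 CPM and 21.9, 34.5 and 21.9, which overlapped too (log2 fold change -0.44, SE 0.27, adjusted p 0.226), a fall that passed with no filter on low counts (-0.46, adjusted p 0.0441). Part of Hif1a's exons overlaps the antisense gene Gm15283 (5.60% of its 5896 exonic bases) and the same-strand gene Gm49321 (2.51%), part of Arnt2's overlaps the antisense gene Gm30873 (2.78%), and the strand setting of the counting is not stated, so reads there cannot be told apart.

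Epas1 rose in hypoxic BV2 alone, from 14.3 and 16.9 to 35.6 and 34.5 CPM (2.25-fold, log2 fold change 1.17, SE 0.13, adjusted p 1.04e-06), without overlap. In BMDM alone it had 15.2 and 13.2 CPM in normoxia and 14.7 and 14.9 in hypoxia, all 4 within a narrow range (log2 fold change 0.06, SE 0.23, adjusted p 0.886). The BV2 and BMDM changes come from separate fits, and their difference was not tested. Hif3a rose in BV2 from 0.638 and 0.802 to 3.77 and 3.90 CPM (5.30-fold, log2 fold change 2.41, SE 0.30, adjusted p 3.28e-06), to a level still below that of every other member except Arnt2. In GL261 alone Hif3a had 1.89 and 1.65 CPM in normoxia and 1.68 and 2.30 in hypoxia, which overlapped (log2 fold change 0.15, SE 0.35, adjusted p 0.746). It was too low for testing in BMDM. In co-cultured BV2, Epas1 rose by 1.18 (SE 0.14, adjusted p 1.35e-06) and Hif3a by 2.50 (SE 0.32, adjusted p 3.67e-06) on the log2 scale.

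Of the partner subunits, Arnt was the main one everywhere and rose in hypoxia in BV2, GL261 and BMDM alone. In BV2 it went from 41.8 and 48.2 to 89.1 and 92.0 CPM (2.01-fold, log2 fold change 1.01, SE 0.12, adjusted p 1.67e-06). In GL261 it went from 48.8 and 48.2 to 86.2 and 72.7 CPM (1.64-fold, log2 fold change 0.71, SE 0.13, adjusted p 8.81e-04). In BMDM it went from 40.0 and 45.0 to 60.4 and 67.2 CPM (1.502-fold, log2 fold change 0.59, SE 0.18, adjusted p 0.0343). None of these groups overlapped, but the BMDM call was lost on leaving out any 1 of its 4 libraries (log2 fold change 0.44 to 0.64, adjusted p 0.103 to 0.258) and with no filter on low counts (0.50, adjusted p 0.0908). In co-culture Arnt rose in BV2 (log2 fold change 1.17, SE 0.12, adjusted p 3.27e-07) and GL261 (log2 fold change 0.88, SE 0.13, adjusted p 1.53e-04), and in BMDM its change was 0.36 (SE 0.15, adjusted p 0.0789). The BMDM change passed with a filter at a mean of 5 CPM (0.40, adjusted p 0.0404) or without normoxic replicate 2 (0.46, adjusted p 0.0439). Arnt2, a paralog known mainly from neurons, made up 0.840 and 2.26% of the summed CPM per kb of the pair in normoxic BV2 and 0.849 and 0.291% in normoxic BMDM, both kept alone. In BMDM of the second experiment its share was 4.15 and 6.93% in normoxia, 9.48 and 16.4% in hypoxia and 8.41 and 11.7% with panobinostat. The BMDM libraries of the first, apart from 1 in hypoxic co-culture, were all lower. The libraries of the second are those with the high fibroblast marker sums, whose part in this share was not tested. Its levels varied between replicates, as in normoxic BV2 co-culture (0.138 and 0.854 CPM) and hypoxic BMDM co-culture (0.201, 4.91 and 0.678 CPM). It rose in co-cultured BV2 (log2 fold change 1.85, SE 0.58, adjusted p 0.0107), a call lost without normoxic replicate 1 (1.16, adjusted p 0.0839) or hypoxic replicate 1 (1.43, adjusted p 0.105). In co-cultured BMDM its change was 1.91 (SE 0.97, adjusted p 0.150), which passed without hypoxic replicate 1 (2.43, adjusted p 0.0431) and turned negative without hypoxic replicate 2 (-0.22).

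Read over all members, hypoxia called 6 of 10 in BV2 alone, all rises, where 61.9% of all genes tested were called in either direction. In co-cultured BV2 all 10 were called, 9 rises and the fall of Egln2, against 67.3% of all genes. In GL261, where Epas1 and Arnt2 were too low to test, 6 of 8 were called alone and 7 of 8 in co-culture, against 44.6% and 52.4%. In BMDM, 4 of 9 were called alone, Egln1, Egln3, Vhl and Arnt, against 23.9%, and 3 of 9 in co-culture, Egln1, Egln3 and Vhl, against 34.8%. The counts of members are near the share of all genes in several of these comparisons, as in co-cultured BMDM, and say little by themselves. The median log2 fold change of the members tested for cells alone was 1.09 (BV2), 0.67 (GL261) and 0.59 (BMDM), beside 0, -0.03 and 0.03 over all genes tested. Same-numbered BMDM co-culture libraries deviated together, and with the replicate number as a block Hif1a joined the calls as a fall in co-cultured BMDM (log2 fold change -0.41, SE 0.14, edgeR adjusted p 0.0397), making 4.

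**Figure D3:**
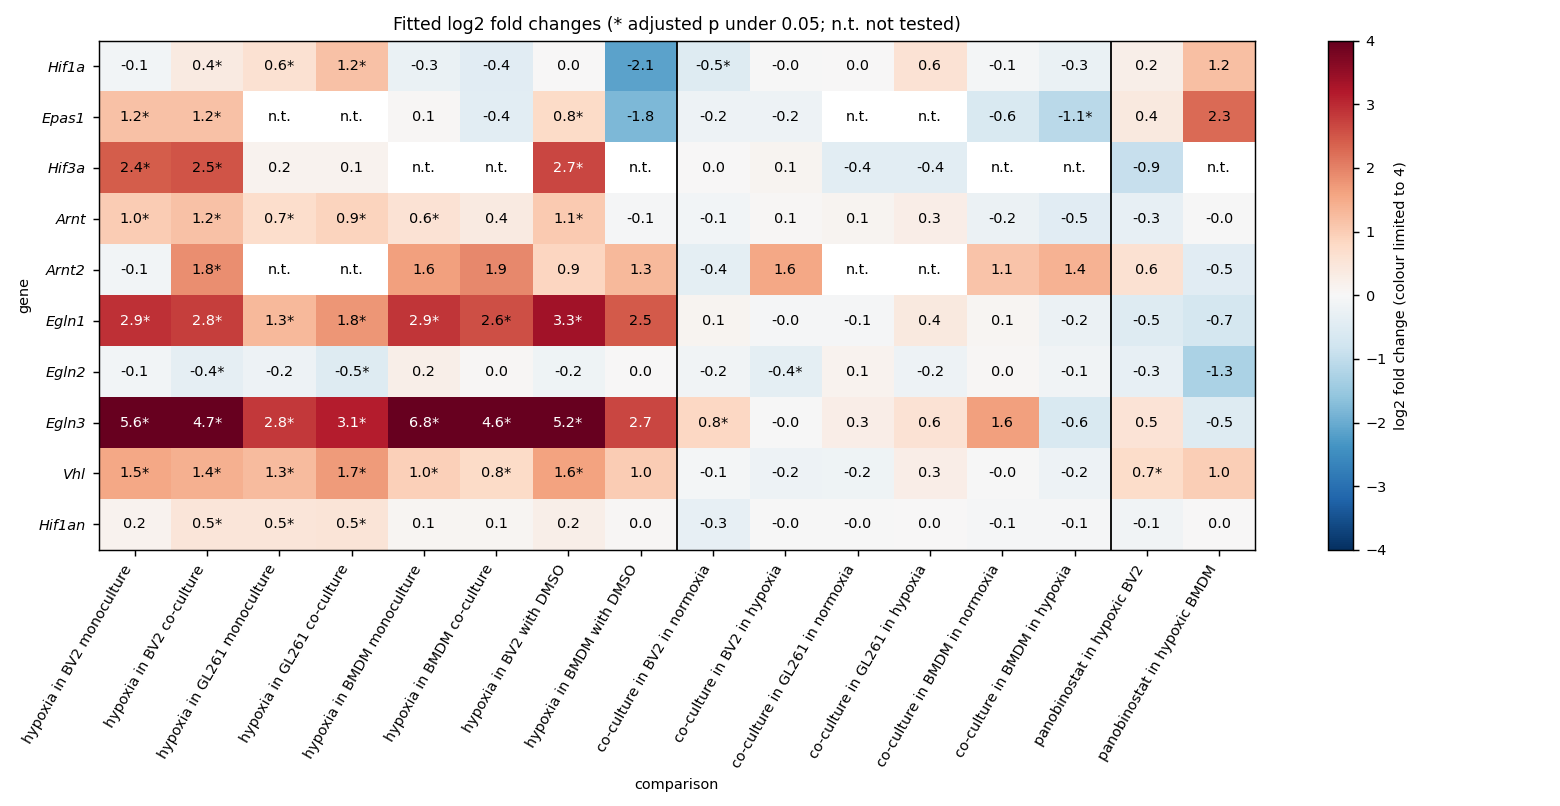
Fitted log2 fold changes of the 10 genes (rows) in each hypoxia, co-culture and panobinostat comparison (columns); colour gives the log2 fold change, limited to 4 in either direction, an asterisk an adjusted p under 0.05 and n.t. a gene too low to test. The Egln1, Egln3 and Vhl rows are positive in all 8 hypoxia columns. The co-culture columns hold few asterisks, where 0.514 to 15.7% of all genes tested were called.

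The response to hypoxia differed in size between BV2 and GL261 for 3 members, where 37.4% of all genes tested differed. The Egln3 effect was larger in BV2 by 2.87 (SE 0.23, adjusted p 7.40e-08) on the log2 scale, the Egln1 effect by 1.71 (SE 0.20, adjusted p 3.27e-06) and the Hif3a effect by 2.36 (SE 0.45, adjusted p 3.93e-04), in the fit over both types with an interaction term. The median of this difference over all genes tested was 0.15. For Vhl the difference was 0.37 (SE 0.17, adjusted p 0.107) and for Arnt 0.39 (SE 0.17, adjusted p 0.0818), so those 2 rises were not shown to differ between the types. Both passed with a filter at a mean of 5 CPM (Vhl 0.43, adjusted p 0.0303, and Arnt 0.46, adjusted p 0.0236). For Hif1a, which rose in GL261 alone, the difference was -0.62 (SE 0.26, adjusted p 0.0747). It passed without GL261 normoxic replicate 2 (-1.11, adjusted p 0.00243) or hypoxic replicate 2 (-0.92, adjusted p 0.0120), and with no filter on low counts (-0.68, adjusted p 0.00553).

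**Figure D4:**
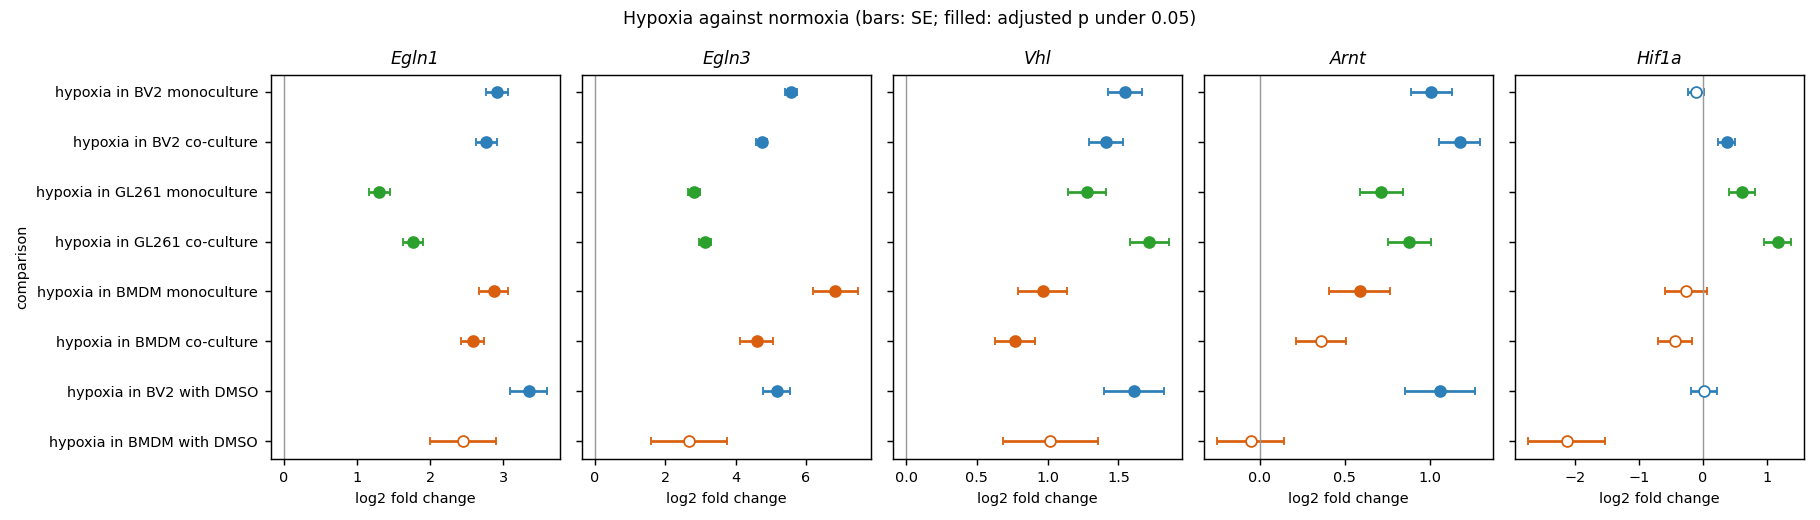
Log2 fold change of hypoxia against normoxia for Egln1, Egln3, Vhl, Arnt and Hif1a in the 8 comparisons (rows), with bars of 1 SE; filled points passed an adjusted p of 0.05 and colours give the cell type (blue BV2, green GL261, orange BMDM). The Egln1 and Egln3 points of GL261 sit left of those of BV2, the Vhl points lie closer together, and the Hif1a points fall on both sides of 0.

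Co-culture by itself called few members, but also only 0.514 to 15.7% of all genes tested, so the counts of members say little by themselves. In normoxic BV2 it called 2, where 14.9% of all genes were called: Hif1a fell from 163 and 204 CPM alone to 139 and 120.2 with GL261 (1.41-fold lower, log2 fold change -0.50, SE 0.13, adjusted p 0.0165), and Egln3 rose from 9.35 and 8.42 to 12.6 and 19.0 (1.79-fold, log2 fold change 0.84, SE 0.17, adjusted p 0.00463). Neither pair of groups overlapped. The Hif1a call was lost without replicate 2 of the cells alone (-0.34, adjusted p 0.223) or replicate 2 of the co-culture (-0.42, adjusted p 0.135), and with a filter at a mean of 5 CPM (-0.41, adjusted p 0.0579). The Egln3 call was lost likewise (0.76, adjusted p 0.0599, and 0.48, adjusted p 0.115). At the levels of normoxic GL261 alone, the estimated GL261 RNA would come to 0.378 and 0.271% of Hif1a in these co-culture libraries. For Egln3 it would come to 0.761 and 0.312%. In hypoxic BV2 only Egln2 was called, against 15.7% of all genes, falling from 37.5 and 35.7 to 28.0 and 27.9 CPM (log2 fold change -0.39, SE 0.11, adjusted p 0.0303). It was lost without replicate 1 of the cells alone (-0.42, adjusted p 0.0709) or replicate 2 of the co-culture (-0.44, adjusted p 0.0563), and in a fit of only the 2 groups (-0.38, adjusted p 0.0797).

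Of the known HIF target genes, background for what the pathway does in these cells, 10 rose and 0 fell of 26 tested in normoxic BV2 with co-culture, beside 5.77% of all genes rising, among them Ankrd37 (log2 fold change 1.23, SE 0.24, adjusted p 0.00457) and Bnip3, a mitophagy receptor (1.13, SE 0.22, adjusted p 0.00408). In hypoxic BV2 3 rose and 1 fell of 26, beside 8.13% of all genes rising. In GL261 1 of 26 rose in normoxia and 5 in hypoxia, beside 0.323% and 0.889%, and in BMDM 2 and 1 of 27, beside 1.57% and 4.06%, with none falling. In GL261 no member passed by edgeR in normoxia (0 of 8, against 0.514% of all genes called) or in hypoxia (0 of 8, against 1.39%). At an unadjusted p under 0.05 there were 0 in normoxia and 4 in hypoxia. DESeq2 called 1 in hypoxia, and the shares of all genes for these other counts are not given. The member called by DESeq2 was Egln3, with 82.8 and 63.2 CPM alone and 113 and 104 in hypoxic co-culture, which did not overlap (edgeR, log2 fold change 0.57, SE 0.14, adjusted p 0.0868). It passed without replicate 1 of the cells alone (0.77, adjusted p 0.0276).

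In BMDM, co-culture in normoxia called no member by edgeR, against 1.64% of all genes, and 2 members had an unadjusted p under 0.05. In hypoxia it called Epas1, where 7.11% of all genes were called. Epas1 had 14.7 and 14.9 CPM alone and 8.53, 5.36 and 7.37 in co-culture, every co-culture library being lower (2.09-fold lower, log2 fold change -1.06, SE 0.21, adjusted p 0.0191). GL261 alone had no Epas1 count, and GL261 RNA made up 1.69 to 6.38% of these co-culture libraries. The call was lost without replicate 1 of the cells alone (-1.07, adjusted p 0.118) or 2 (-1.06, adjusted p 0.153), and in a fit of only the 2 groups (-1.03, adjusted p 0.0807). For other members that share, at the level of hypoxic GL261 alone, would come to as much as 31.0% of the Hif1an, 24.6% of the Hif1a and 13.51% of the Vhl level in a library. Whether the hypoxia effect differed between co-culture and cells alone was tested with an interaction term. No member passed by edgeR in BV2 (0 of 10, against 2.19% of all genes), GL261 (0 of 8, against 0.0%) or BMDM (0 of 9, against 0.0%). At an unadjusted p under 0.05 there were 3, 2 and 1 in these types, and DESeq2 called 1 in BV2. The nearest to passing by edgeR was Egln3 in BV2, with a difference of -0.85 on the log2 scale (SE 0.21, adjusted p 0.0504), its hypoxia effect being the smaller in co-culture. That difference passed without hypoxic replicate 2 of the cells alone (-0.92, adjusted p 0.0362), normoxic replicate 1 of the co-culture (-1.10, adjusted p 0.0132), or hypoxic replicate 1 (-0.94, adjusted p 0.0384) or 2 (-0.94, adjusted p 0.0412) of the co-culture.

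In the second experiment, BV2 with DMSO gave 6 calls of 10 in hypoxia, all rises, where 37.5% of all genes were called: Egln1, Egln3, Vhl, Arnt, Epas1 and Hif3a, the 6 called in BV2 alone. Egln3 went from 8.27 and 17.9 to 443 and 505 CPM (36.2-fold, log2 fold change 5.18, SE 0.38, adjusted p 5.94e-05) and Egln1 from 74.0 and 95.2 to 934 and 785 (10.2-fold, log2 fold change 3.34, SE 0.25, adjusted p 6.10e-05). Vhl went from 11.99 and 14.6 to 38.9 and 42.3 CPM (log2 fold change 1.61, SE 0.21, adjusted p 5.99e-04) and Arnt from 47.8 and 51.6 to 116 and 90.8 (log2 fold change 1.06, SE 0.20, adjusted p 0.00337). Normoxic and hypoxic libraries did not overlap for these 4. Epas1 (log2 fold change 0.78, SE 0.25, adjusted p 0.0337) was lost without normoxic replicate 2 (0.51, adjusted p 0.118) or hypoxic replicate 1 (0.71, adjusted p 0.118). Hif3a (log2 fold change 2.66, SE 0.92, adjusted p 0.0452), with no count in 1 normoxic library, was lost without the same libraries (1.68, adjusted p 0.167, and 1.78, adjusted p 0.279). Both also fell short in a fit of the 2 groups without the panobinostat libraries (0.82, adjusted p 0.0528, and 2.70, adjusted p 0.0584). Hif1a had 161 and 158 CPM in normoxia and 171 and 153 in hypoxia, which overlapped (log2 fold change 0.02, SE 0.20, adjusted p 0.944).

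The BMDM libraries of this experiment differed between replicates. Egln3 had 92.5 and 6.24 CPM in the normoxic DMSO libraries and 251 and 377 in the hypoxic ones (log2 fold change 2.67, SE 1.09, adjusted p 0.196). Normoxic replicate 1 was also the higher of its pair for 25 of 28 known HIF target genes, 12 of them at least 2-fold, with a median log2 difference of 0.95. Epo, among the 28, had 0 CPM in both libraries. The same count over all genes was not taken, so a shift particular to these targets is not shown. Egln1 had 176 and 80.8 CPM in normoxia and 769.9 and 637 in hypoxia (log2 fold change 2.45, SE 0.45, adjusted p 0.0729), and Vhl 26.7 and 18.4 in normoxia and 44.1 and 47.2 in hypoxia (log2 fold change 1.02, SE 0.33, adjusted p 0.139). Each of the 3 was higher in both hypoxic libraries. Hif1a had 492 and 146 CPM in normoxia and 72.1 and 74.0 in hypoxia (log2 fold change -2.13, SE 0.60, adjusted p 0.112), and Epas1 had 41.7 and 27.0 CPM in normoxia and 3.00 and 17.2 in hypoxia (log2 fold change -1.78, SE 0.75, adjusted p 0.204). Both were lower in each hypoxic library. No member passed by edgeR (0 of 9, against 0.483% of all genes by the same test). At an unadjusted p under 0.05 there were 5, with DESeq2 3 and with no filter on low counts 5, the 5 genes named here. The shares of all genes for these other counts are not given. Without normoxic replicate 1 the log2 fold changes were 5.59 for Egln3, 3.07 for Egln1, 1.25 for Vhl and -1.05 for Hif1a. Without hypoxic replicate 2, Epas1 passed (-3.52, adjusted p 0.0390). Of the 4 DMSO libraries, the 2 normoxic ones had the highest fibroblast marker sums, given above, and the highest Hif1a. The summed macrophage markers were 8591 and 6445 CPM in normoxia and 2685 and 4333 in hypoxia. The part of these in the values was not tested.

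**Figure D5:**
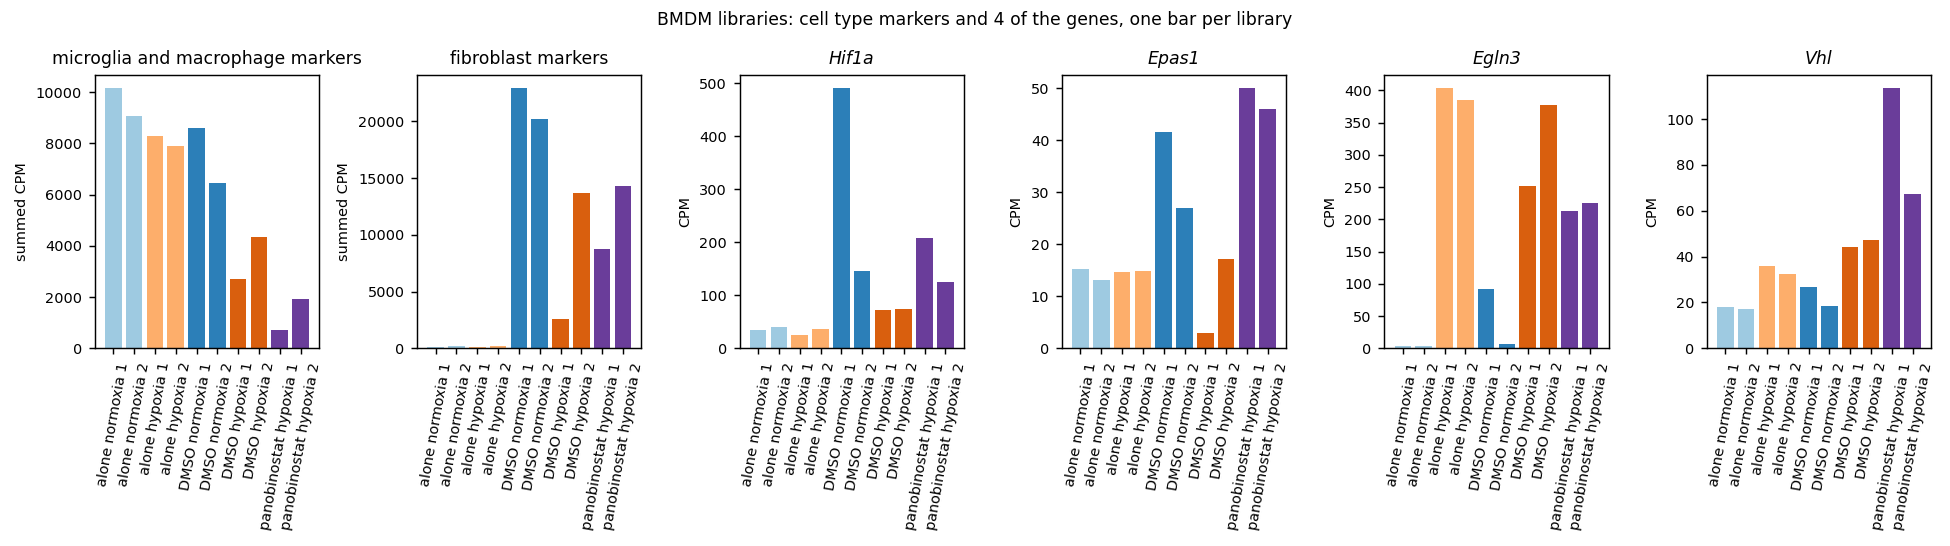
BMDM libraries kept alone in the first experiment and with DMSO or panobinostat in the second: summed CPM of macrophage and of fibroblast markers, and CPM of Hif1a, Epas1, Egln3 and Vhl, with 1 bar per library. The fibroblast sums of the second experiment are far above those of the first, normoxic DMSO replicate 1 has the highest Hif1a, and Vhl is highest in the 2 panobinostat libraries.

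Panobinostat raised 1 member in hypoxic BV2, where 14.6% of all genes were called. Vhl had 38.9 and 42.3 CPM with DMSO and 68.4 and 67.8 with panobinostat, without overlap (1.68-fold, log2 fold change 0.75, SE 0.20, adjusted p 0.0361). The call was lost on leaving out any 1 of the 4 libraries (log2 fold change 0.68 to 0.80, adjusted p 0.0999 to 0.234). Egln3 had 443 and 505 CPM with DMSO and 609 and 773 with panobinostat, and Egln1 had 934 and 785 with DMSO and 612 and 599 with panobinostat. These groups did not overlap, Egln3 being higher (log2 fold change 0.54, SE 0.32, adjusted p 0.272) and Egln1 lower with the drug (log2 fold change -0.51, SE 0.23, adjusted p 0.162), but neither passed. The Egln3 share of prolyl hydroxylase RNA was 37.6 and 44.9% with DMSO and 55.5 and 62.0% with panobinostat. In hypoxic BMDM the drug called no gene at all by edgeR (0.0% of those tested). Of the 9 members tested, 3 had an unadjusted p under 0.05, 2 passed by DESeq2, Epas1 and Egln2, and 4 passed with no filter on low counts, Hif1a, Epas1, Egln2 and Vhl. Vhl had 44.1 and 47.2 CPM with DMSO and 114 and 67.3 with panobinostat (log2 fold change 0.99, SE 0.33, adjusted p 0.136). Egln2 had 96.8 and 84.1 CPM with DMSO and 40.4 and 35.1 with the drug (log2 fold change -1.26, SE 0.24, adjusted p 0.0644), and Epas1 3.00 and 17.2 with DMSO and 50.1 and 45.9 with the drug (log2 fold change 2.27, SE 0.76, adjusted p 0.135). None of these groups overlapped. The summed macrophage markers of the panobinostat libraries were 709 and 1912 CPM, below both hypoxic DMSO libraries, and their part in these values was not tested.

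Between BV2 and BMDM of the second experiment, the hypoxia effect differed for no member by edgeR (0 of 10, against 0.664% of all genes). The panobinostat effect differed for none either (0 by edgeR, against 0.0251%). For hypoxia, 3 members had an unadjusted p under 0.05, 3 passed by DESeq2 and 3 with no filter on low counts. For panobinostat, 2 had an unadjusted p under 0.05. The shares of all genes for these other counts are not given. The hypoxia effect differed for Hif1a (2.83, adjusted p 0.0383) and Egln3 (3.47, adjusted p 0.0406) without normoxic BMDM replicate 2, and for Epas1 without hypoxic BMDM replicate 2 (4.33, adjusted p 0.00692). Without the latter the panobinostat effect on Epas1 differed as well (-3.73, adjusted p 0.0170). In normoxia with DMSO, 5 members differed, where 44.2% of all genes did: Hif1an was higher in BV2 (log2 fold change 1.33, SE 0.22, adjusted p 9.00e-04), and Egln2 (log2 fold change -1.08, SE 0.22, adjusted p 0.00339), Arnt2 (log2 fold change -2.69, SE 0.76, adjusted p 0.0167), Vhl (log2 fold change -0.94, SE 0.28, adjusted p 0.0208) and Arnt (log2 fold change -0.62, SE 0.19, adjusted p 0.0237) were lower. Hif1an had 89.5 and 94.9 CPM in BV2 and 33.1 and 31.5 in BMDM, and Egln2 had 43.6 and 52.8 in BV2 and 103 and 77.1 in BMDM. Both were separate between the types, in CPM scaled within each type's own fit. The Arnt and Vhl calls were lost in a fit of only these groups (-0.60, adjusted p 0.0726, and -0.93, adjusted p 0.0613). The Arnt call was lost without any 1 of the 4 libraries (log2 fold change -0.63 to -0.54, adjusted p 0.0739 to 0.124), the Vhl call without BMDM replicate 1 or either BV2 library (log2 fold change -1.05 to -0.67, adjusted p 0.0610 to 0.151), and the Arnt2 call without BMDM replicate 2 or BV2 replicate 2 (log2 fold change -2.27 to -1.99, adjusted p 0.0699 to 0.121). With no filter on low counts Arnt was lost too (-0.57, adjusted p 0.188). Without BMDM replicate 2, Hif1a (-1.79, adjusted p 0.00205), Egln1 (-1.23, adjusted p 0.0139) and Egln3 (-2.99, adjusted p 5.70e-04) passed. The BMDM libraries here are those with the high fibroblast marker sums, whose part in the differences was not tested.

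Other genes of the pathway were read from 4 lists. Of the known HIF targets, 21 rose and 0 fell of 26 tested in BV2 alone, 24 and 1 of 26 in GL261 and 24 and 0 of 27 in BMDM, beside 30.9%, 23.2% and 13.3% of all genes rising. The largest rises in BV2 were Bnip3 (log2 fold change 5.28, SE 0.25, adjusted p 1.00e-10) and Ankrd37 (5.17, SE 0.24, adjusted p 9.55e-11), and the median over the list was 2.23 for BV2, 2.33 for GL261 and 2.54 for BMDM. The fall in GL261 was that of Slc2a3, a neuronal-type glucose transporter (-0.74, SE 0.23, adjusted p 0.0229). Of genes that act in HIF turnover, 4 rose and 8 fell of 15 tested in BV2 alone, 3 and 5 of 15 in GL261, and 2 and 1 of 15 in BMDM, beside 31.0%, 21.4% and 10.6% of all genes falling. Siah2, a ubiquitin ligase that targets EGLN3, rose in BV2 (1.29, SE 0.12, adjusted p 9.47e-08) and GL261 (1.38, SE 0.14, adjusted p 3.24e-05). Wsb1, a ligase subunit that targets VHL, rose in BV2 (1.23, SE 0.12, adjusted p 1.35e-07), GL261 (0.60, SE 0.14, adjusted p 0.00594) and BMDM (0.70, SE 0.22, adjusted p 0.0401). Cul2, the scaffold of the VHL ligase, fell in BV2 (-0.94, SE 0.12, adjusted p 3.47e-06), and the chaperone gene Hspa8 fell in BV2 (-1.10, SE 0.12, adjusted p 1.17e-06), GL261 (-2.67, SE 0.16, adjusted p 8.66e-07) and BMDM (-0.80, SE 0.21, adjusted p 0.0185).

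Of coactivators and their competitors, 5 rose and 2 fell of 8 tested in BV2, 4 and 0 of 8 in GL261 and 1 and 0 of 8 in BMDM. The shares of all genes rising and falling were 30.9% and 31.0% in BV2, 23.2% and 21.4% in GL261 and 13.3% and 10.6% in BMDM. Cited2, which competes with HIF alpha for p300, rose in BV2 (0.92, SE 0.11, adjusted p 1.31e-06), GL261 (0.93, SE 0.14, adjusted p 3.60e-04) and BMDM (0.90, SE 0.18, adjusted p 0.00627). Smarca4, an ATPase of a chromatin remodeller, fell in BV2 (-0.69, SE 0.13, adjusted p 2.15e-04). Of the other genes of the bHLH-PAS family, to which the HIF subunits belong, 2 rose and 0 fell of 7 tested in BV2, 5 and 0 of 7 in GL261 and 2 and 0 of 7 in BMDM, the BV2 count being near the share of all genes. Bmal1, a circadian clock subunit, rose in BV2 (1.36, SE 0.13, adjusted p 2.51e-07), GL261 (2.87, SE 0.21, adjusted p 3.84e-06) and BMDM (1.02, SE 0.24, adjusted p 0.0124). Its clock relative Npas2 rose in BV2 (2.34, SE 0.24, adjusted p 3.37e-07) and BMDM (3.09, SE 0.36, adjusted p 3.23e-04), and Ahrr, a repressor of the aryl hydrocarbon receptor, rose in GL261 (2.37, SE 0.25, adjusted p 3.72e-05). With panobinostat in hypoxic BV2, Os9, whose product is reported to bind HIF1A and its hydroxylases, rose (0.83, SE 0.24, adjusted p 0.0466), and the coactivator gene Ncoa1 fell (-0.74, SE 0.19, adjusted p 0.0338).

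The genes whose pattern was most like that of each member were ranked by Pearson's r over the 18 group means of log2 CPM, centred within each cell type and experiment, among 8668 genes. The group means share the hypoxia and normoxia contrast, so high values are a description, given with no p. For Egln1 the nearest were Bnip3l (0.997), Pfkp (0.993) and Atg13 (0.990); Bnip3l encodes a mitophagy receptor and Pfkp a glycolytic enzyme. For Egln3 they were Ier3 (0.988), Plod2 (0.987) and Slc2a1 (0.986), where Plod2 encodes a collagen lysyl hydroxylase and Slc2a1 a glucose transporter. For Vhl they were Atg12 (0.983), Ppme1 (0.976) and Dnajc5 (0.971), and for Arnt Cog6 (0.972), Osbpl9 (0.969) and Cep170 (0.966). Egln1 and Egln3 themselves correlated at 0.98. The members that moved less had other neighbours: Socs5 (0.952), Htt (0.931) and St3gal3 (0.911) for Hif1a, Kctd2 (0.938), Ctdsp1 (0.933) and Ten1 (0.932) for Egln2 and Chm (0.960), Tab3 (0.952) and Cep350 (0.951) for Hif1an. Epas1, Hif3a and Arnt2 were not tested in every cell type and were not ranked.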

How the data were processed

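The deposited tables hold raw read counts per Ensembl gene, which the authors made from paired reads; the submitters' processing notes name Trimmomatic 0.36, STAR 2.6, Picard 2.17.1, SAMtools, HTSeq 0.9.1 and the build mm10, without their roles. The strand setting of the counting is not given in the sources used here. Symbols, exon lengths and coordinates came from GENCODE M21 (55141 of 55487 identifiers had a symbol), promoters from RefSeq (GRCm38.p6).

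Counts were fitted as deposited with edgeR 4.0.16 (R 4.3.3) by the quasi-likelihood F test, 1 fit per cell type and experiment over all its groups, plus joint fits of BV2 with GL261 and of BV2 with BMDM for differences between types. Genes passed edgeR's filter (minimum count 10, total 15), libraries were scaled by TMM, and adjusted p-values are Benjamini-Hochberg over all genes of a fit, with calls at 0.05. SE is the log2 fold change divided by the root of F. DESeq2 1.42.0, its size factors, 2 other filters, a replicate block, fits of only the groups compared and 58 fits leaving out 1 library were alternatives. Every share of all genes called is that of the main edgeR fit, and none is given for an unadjusted p or an alternative. The fits were tested on simulated counts. Levels of members are CPM scaled by TMM within the fit of each cell type and experiment, also where types are compared. With groups of 2, the smallest exact permutation p is 0.333, so no single-gene permutation test was used.

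The members and lists were chosen with earlier results of these data known. All 10 members are named. From each other list, up to 2 genes per direction were eligible for naming in a comparison, those called with the largest change and a mean log2 CPM of at least 2. The labels call the replicates biological for BV2 and GL261 of the first experiment; elsewhere p-values measure the spread between libraries, which may be technical. Replicate pairs all differed by more than counting noise (chi-square per degree of freedom 6.70 to 156). Same-numbered libraries of the hypoxic and normoxic BMDM co-cultures deviated together (correlations 0.455, 0.244 and 0.407 over 3 pairs), so the blocked value is given beside that comparison.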

Additional observations from a re-analysis of the deposited data

Results flagged for a closer look

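The hypoxia effect differed between BV2 and GL261 alone, by an interaction term in the fit over both lines, for 3 members. Of all genes tested, 37.4% differed. The BV2 effect was the larger by 2.87 on the log2 scale for Egln3 (effects of 5.59 and 2.82), by 2.36 for Hif3a (2.41 and 0.15) and by 1.71 for Egln1 (2.91 and 1.31). Every hypoxic BV2 library was above every hypoxic GL261 library for these 3 genes, in CPM scaled within each line's own fit. No explanation was tested. The line and its culture cannot be told apart, since each type is 1 line. The effects in parentheses come from the separate fit of each line, which scales and filters the libraries on its own, so that they do not subtract exactly to the joint value.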

How the results depend on the processing

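Of 60 member calls, 38 were kept in every alternative that tested them, among them the rises of Egln1 and Egln3 with hypoxia in BV2, GL261 and BMDM, alone and co-cultured. With 2 libraries in most groups, 1 library decided many of the others, and Arnt2, Hif3a and GL261 Epas1 lie near the detection floor. Counting precision is no limit for the remaining members, whose lowest levels outside Egln3 and Epas1 were above 10 CPM. DESeq2, its size factors and the block lost no listed call.

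Counts of members called that moved by more than 1.5 times follow, with the report's count in parentheses. The shares of all genes called in these, the blocked and the leave-one-out fits are not given. A moved count therefore does not show that members moved more than other genes. With no filter beyond 1 count, the members called numbered 5 for hypoxia in co-cultured BMDM (3 in the report), 5 for hypoxia in DMSO BMDM (0), 2 for co-culture in hypoxic BV2 (1), 2 in hypoxic GL261 (0), 1 in normoxic BMDM (0) and 2 in hypoxic BMDM (1), 4 for panobinostat in BMDM (0), 1 for each difference of the hypoxia effect between co-culture and cells alone in BV2 and BMDM (0), 3 for that between BV2 and BMDM with DMSO (0) and 1 for the panobinostat difference (0). The filter at a mean of 5 CPM gave 1 for co-culture in normoxic BV2 (2), 1 for the co-culture difference in BV2 (0) and 1 for the BV2 and BMDM difference (0). DESeq2 gave 3 for hypoxia in DMSO BMDM, 1 for co-culture in hypoxic GL261, 2 for panobinostat in BMDM, 1 for the co-culture difference in BV2 and 3 for the BV2 and BMDM difference, all 0 in the report. Its size factors in edgeR gave 1 for the co-culture difference in BV2. Fits of only the groups compared gave 0 for co-culture in hypoxic BMDM (1) and 3 for BV2 against BMDM (5). Among smaller moves, fits of only the groups compared gave 4 for hypoxia in DMSO BV2 (6), and either other filter gave 4 for the difference between BV2 and GL261 (3). Each call lost under a filter or a smaller fit stands beside its result. The cause was not tested.

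With the replicate number as a block, 2 members were called for hypoxia in DMSO BMDM, Hif1a (-1.89, adjusted p 0.0458) and Egln1 (2.54, adjusted p 0.0174), 1 for co-culture in hypoxic GL261 (Egln3, 0.58, adjusted p 0.0310), 1 for panobinostat in BMDM (Egln2, -1.26, adjusted p 0.0247) and 1 for the co-culture difference in BV2 (Egln3, -0.84, adjusted p 0.0435). Hif1a was also called lower in BV2 than in BMDM with the block (-1.05, adjusted p 0.0471). Beside these and Hif1a in co-cultured BMDM, the block changed no member's call. In these groups of 2 the samples share only a number; deviations of same-numbered libraries correlated at a mean of 0.0335 (BV2) and 0.180 (GL261) in the co-culture experiment and 0.302 (BV2) and 0.446 (BMDM) in the panobinostat experiment.

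Leaving out 1 library at a time, the members called for hypoxia ranged 6 to 6 in BV2 alone, 7 to 10 in co-cultured BV2, 4 to 6 in GL261 alone, 5 to 7 in co-cultured GL261, 2 to 3 in BMDM alone, 3 to 4 in co-cultured BMDM, 4 to 6 in BV2 and 0 to 1 in BMDM with DMSO. For co-culture they ranged 0 to 2 and 0 to 1 in normoxic and hypoxic BV2, 0 to 0 and 0 to 1 in GL261, and 0 to 0 and 0 to 2 in BMDM, and for panobinostat 0 to 0 in BV2 and 0 to 0 in BMDM. The differences ranged 0 to 1, 0 to 0 and 0 to 0 for co-culture against cells alone in BV2, GL261 and BMDM, 3 to 4 for BV2 against GL261, 0 to 2 for BV2 against BMDM, 0 to 1 for panobinostat, and 3 to 5 and 2 to 6 for the normoxic comparisons of BV2 with GL261 and BMDM.

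The sign of 57 member changes turned in at least 1 alternative, and none of them was called in the report. With DESeq2, the log2 values that turned were Egln2 -0.00090 (hypoxia in DMSO BMDM), Epas1 -0.0069 (the co-culture difference in BV2), Hif1an 0.030 (the co-culture difference in BMDM) and Arnt -0.020 (BV2 against GL261). With DESeq2 size factors, the log2 values that turned were Egln2 -0.0013 (hypoxia in DMSO BMDM), Epas1 -0.0076 (the co-culture difference in BV2), Hif1an 0.031 (the co-culture difference in BMDM) and Arnt -0.020 (BV2 against GL261). With the 5 CPM filter, the log2 values that turned were Vhl 0.021 (co-culture in normoxic BV2), Hif1a 0.0072, Egln3 0.020 and Hif1an 0.0080 (co-culture in hypoxic BV2), Hif1an -0.0100 (co-culture in hypoxic GL261), Vhl 0.030 (co-culture in normoxic BMDM), Hif1an 0.020 (co-culture in hypoxic BMDM), Arnt 0.015 (panobinostat in BMDM), Epas1 -0.055 (the co-culture difference in BV2), Hif1an 0.042 (the co-culture difference in BMDM) and Arnt -0.10 (BV2 against GL261). With no filter, the log2 values that turned were Epas1 -0.026 and Hif1an -0.0100 (hypoxia in BMDM alone), Egln2 -0.019 (hypoxia in DMSO BMDM), Arnt -0.031 (co-culture in hypoxic BV2), Hif1an -0.0014 (co-culture in hypoxic GL261), Epas1 -0.094 and Hif3a -0.0055 (the co-culture difference in BV2) and Hif1an 0.048 (the co-culture difference in BMDM). In fits of only the groups compared, the log2 values that turned were Hif1an -4.9e-05 (co-culture in hypoxic GL261) and Arnt -0.021 (BV2 against GL261). With the replicate block, the log2 values that turned were Hif1a 0.028, Vhl 0.052 and Hif1an 0.037 (co-culture in normoxic BMDM) and Hif1an 0.027 (co-culture in hypoxic BMDM).

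On leaving out 1 library at a time, the log2 values of the changes that turned had these ranges. Hypoxia in BV2 alone gave -0.26 to 0.064 (Hif1a) and -0.71 to 0.93 (Arnt2). Hypoxia in GL261 alone gave -0.067 to 0.41 (Hif3a). Hypoxia in co-cultured GL261 gave -0.12 to 0.48 (Hif3a). Hypoxia in BMDM alone gave -0.12 to 0.10 (Epas1) and -0.048 to 0.13 (Hif1an). Hypoxia in co-cultured BMDM gave -0.22 to 3.06 (Arnt2), -0.025 to 0.075 (Egln2) and -0.0029 to 0.20 (Hif1an). Hypoxia in DMSO BV2 gave -0.065 to 0.094 (Hif1a) and -0.13 to 2.09 (Arnt2). Hypoxia in DMSO BMDM gave -0.19 to 0.18 (Egln2) and -0.20 to 0.19 (Hif1an). Co-culture in normoxic BV2 gave -0.16 to 0.17 (Hif3a), -2.30 to 0.62 (Arnt2) and -0.19 to 0.31 (Egln1). Co-culture in hypoxic BV2 gave -0.075 to 0.16 (Hif3a), -0.072 to 0.059 (Arnt) and -0.22 to 0.040 (Hif1an). Co-culture in normoxic GL261 gave -0.28 to 0.42 (Hif1a), -0.16 to 0.026 (Egln1) and -0.10 to 0.048 (Hif1an). Co-culture in hypoxic GL261 gave -0.11 to 0.15 (Hif1an). Co-culture in normoxic BMDM gave -0.40 to 0.12 (Hif1a), -0.012 to 1.96 (Arnt2), -0.11 to 0.19 (Egln2), -0.063 to 0.045 (Vhl) and -0.13 to 0.0036 (Hif1an). Co-culture in hypoxic BMDM gave -0.51 to 0.046 (Hif1a), -0.71 to 1.94 (Arnt2) and -0.13 to 0.078 (Hif1an). Panobinostat in BV2 gave -0.25 to 1.58 (Arnt2) and -0.33 to 0.071 (Hif1an). Panobinostat in BMDM gave -0.12 to 0.057 (Arnt), -0.84 to 0.076 (Arnt2) and -0.17 to 0.24 (Hif1an). The co-culture difference in BV2 gave -0.11 to 0.13 (Epas1), -0.11 to 0.26 (Hif3a) and -0.37 to 0.13 (Egln1). The co-culture difference in GL261 gave -0.30 to 0.32 (Hif3a) and -0.083 to 0.19 (Hif1an). The co-culture difference in BMDM gave -0.43 to 0.16 (Hif1a), -1.85 to 1.44 (Arnt2), -0.29 to 0.0058 (Egln2) and -0.068 to 0.14 (Hif1an). The BV2 and BMDM difference gave -1.26 to 5.77 (Hif3a), -1.39 to 0.84 (Arnt2), -0.31 to 0.069 (Egln2) and -0.38 to 3.47 (Egln3). The panobinostat difference gave -0.14 to 0.27 (Egln1) and -0.71 to 0.036 (Vhl). BV2 against GL261 gave -0.11 to 0.093 (Arnt). BV2 against BMDM gave -2.25 to 4.74 (Hif3a) and -2.99 to 0.86 (Egln3). The Egln3 values of the BV2 and BMDM comparisons turned without normoxic DMSO BMDM replicate 1.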
